A study of Mus musculus with 3 samples.

Results

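A set of 9 genes listed as brakes on ubiquitin-dependent signalling to NF-κB was examined in RNA bound to chromatin from mouse macrophages. They were Tnfaip3, which encodes A20, its binding partners Tnip1, Tnip2 and Tnip3 (the ABIN proteins) and its helpers Tax1bp1 and Itch. The deubiquitinases Cyld, Otulin and Otud7b completed the set. The members were chosen by symbol, and all 9 of 9 listed symbols matched 1 gene each among 55450 annotated genes. All 9 were detected, which here means a mean expected count of at least 10, as were 15862 genes in all. The cells were bone-marrow-derived macrophages of the C57BL/6J strain, which are primary phagocytes grown from bone marrow precursors, and no genetic change is given for them. They had been pre-treated with Lipid A, the part of lipopolysaccharide that TLR4 recognises, at 100 ng/ml for 12 h. Lipid A was then removed for 12 h, and the cells received 100 ng/ml again for 15 min before the chromatin fraction was taken and total RNA was sequenced after ribosomal RNA depletion. The 3 libraries form 1 group and are numbered as biological replicates 1, 2 and 3, but they share 1 donor identifier, so their spread may in part be technical. The labels give age and sex as not collected. No untreated cells and no other time point were analysed here, so the values below are levels at 1 time point and say nothing of induction.

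Signals from TLR4 and the TNF receptors are carried by chains of ubiquitin that hold kinase complexes together. Most of the proteins described here cut, edit or cover those chains. A20 removes and adds ubiquitin on signalling proteins such as RIPK1. The proteins of Tnip1, Tnip2 and Tax1bp1 bind ubiquitin and bring A20 to its targets. Tnfaip3 is a textbook target gene of NF-κB, so its protein feeds back on the pathway that switches it on.

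The DNA just upstream of the annotated starts is shown for the 4 members whose upstream stretch held a match to the NF-κB consensus, because such sites are the known means by which NF-κB acts on its target genes. Sequences are from RefSeq on GRCm38.p6, read 5′ to 3′ on the strand of the gene and ending at the base before the start, with the matched bases in capitals. RefSeq gives Tnfaip3 an outer start, that of Tnfaip3-201, and an inner start, that of Tnfaip3-202. The Tnfaip3 stretch lies before the outer start and is chr10:19015411-19015547 on the minus strand (137 bases, ending upstream at an annotated exon of Tnfaip3-203), within intron 1 of Tnfaip3-203. The Tnip1 stretch is chr11:54962941-54963190 on the minus strand and the Cyld stretch is chr8:88696778-88697027 on the plus strand, both outside the annotated gene. The Tnip3 stretch is chr6:65590148-65590397 on the plus strand, within intron 3 of the longer transcript Tnip3-207. The last 3 stretches hold 250 bases each.
Tnfaip3: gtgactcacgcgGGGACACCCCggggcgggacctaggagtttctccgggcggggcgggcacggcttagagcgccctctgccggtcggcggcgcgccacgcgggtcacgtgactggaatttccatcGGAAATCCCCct
Tnip1: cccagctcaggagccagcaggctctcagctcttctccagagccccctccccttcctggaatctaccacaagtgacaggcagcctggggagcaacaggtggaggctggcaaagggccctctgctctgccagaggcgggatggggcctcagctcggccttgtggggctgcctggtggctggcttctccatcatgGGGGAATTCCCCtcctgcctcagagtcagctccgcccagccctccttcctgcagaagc
Tnip3: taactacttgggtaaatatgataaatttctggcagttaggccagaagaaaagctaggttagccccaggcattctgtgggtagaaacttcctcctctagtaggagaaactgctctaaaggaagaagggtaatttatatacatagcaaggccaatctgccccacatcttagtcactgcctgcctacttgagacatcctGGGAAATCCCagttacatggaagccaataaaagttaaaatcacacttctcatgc
Cyld: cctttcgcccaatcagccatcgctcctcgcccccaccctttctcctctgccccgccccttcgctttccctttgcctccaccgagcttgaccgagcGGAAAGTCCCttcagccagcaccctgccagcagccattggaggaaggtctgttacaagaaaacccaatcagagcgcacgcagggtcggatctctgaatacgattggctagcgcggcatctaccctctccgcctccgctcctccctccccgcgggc

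The match in Tnip1 read the same on both strands and lay 58 to 47 bases before the start. The match in Tnip3 also held on both strands and lay 54 to 45 bases before its start. Tnfaip3 had 2 matches upstream of its outer start, 125 to 116 and 12 to 3 bases before it. Cyld had 1, 155 to 146 bases before its start. Over the whole windows of 250 bases before to 50 after the start, Tax1bp1 had a further match 35 to 44 bases into its inner start, and none was found in the windows of Tnip2, Otulin or the inner start of Tnfaip3. Thus 5 of the 7 members with a window held a match, whereas 5.14% of 27025 genes and 4.51% of 32851 windows in the RefSeq table did. Itch and Otud7b were not matched to a window. The AP-1 core TGANTCA was searched in the same way and was found in 7.81% of windows, among the members only in Tnfaip3, 136 to 130 bases before its outer start. TATAAA was found in 13.6% of windows, and among the members 225 to 220 bases before the outer start of Tnfaip3 and 120 to 115 bases before the start of Tnip3 on the opposite strand. The core of the interferon-stimulated response element, which occurred in 3.44% of windows, had no match in the members. A match describes letters and does not show that a factor was bound.

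**Figure D1:**
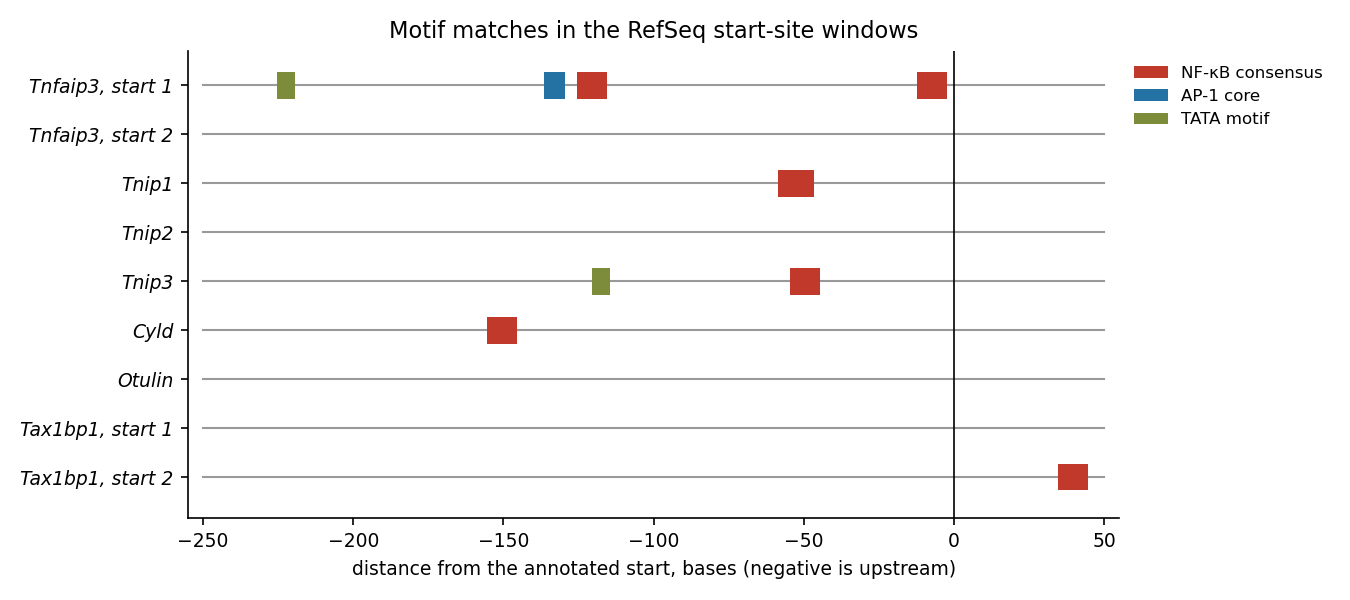
Positions of motif matches in the 9 RefSeq windows of 7 members, plotted as distance in bases from each annotated start. NF-κB consensus matches (red) lie upstream of Tnfaip3, Tnip1, Tnip3 and Cyld and 35 to 44 bases inside the inner start of Tax1bp1, and the Tnip2 and Otulin windows hold no match of any of the motifs.

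The 3 libraries held 14609979, 17423948 and 24162551 expected counts, of which 1.30, 0.563 and 0.298% fell on features of no annotated gene, and the 9 members took 0.114, 0.0831 and 0.0870% of the counts. The libraries had started from 1000, 250 and 500 ng of RNA in replicates 1, 2 and 3. All 8 listed macrophage markers averaged 1 TPM or more, the highest being Adgre1 at 329.6 TPM, with sums of 918.9, 937.5 and 839.5 TPM. Of 23 markers of neutrophils, dendritic cells, lymphocytes, stroma, erythroid and mast cells, 2 reached 1 TPM, Zbtb46 at 1.58 and Pecam1 at 1.31 TPM, while 7 of the 23 reached it in the read-based table. With alignment-based TPM, 6, Elane, Cd3e and Pdgfra among them, were listed at 0 in every library. The summed level of the 23 was 3.92, 5.44 and 5.21 TPM. In bulk RNA, fewer cells of a type and less RNA per cell cannot be told apart. With 1 group no comparison between conditions exists, and a sign flip over 3 libraries cannot go below an exact p of 0.25, so levels, spreads and counts are given without a test.

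Levels are in TPM, the length-scaled share of a library's RNA, from the gene table that rests on alignments, except where read-based values are named. Those were made from the same libraries by another method. The members lay high among detected genes. Their median level was 5.47 ± 0.05 (log2(TPM + 1), SD of the library medians, n = 3), beside 3.08 over all detected genes. Detected protein-coding genes within the members' range of mean TPM, of which there were 4725, had a median of 4.86. Tnip3 was highest and lay above 97.2% of detected genes, and Otud7b was lowest and lay above 63.2%.

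Tnfaip3 (ENSMUSG00000019850.11, chr10:19000910-19015657, minus strand) encodes the editor of the group. It had 93.86, 50.04 and 64.39 TPM in replicates 1, 2 and 3, from 3316, 2105 and 3669 expected counts, a mean of 69.4 ± 22.3 TPM (SD, n = 3). Replicate 1 was the highest and replicate 2 the lowest, and the highest was 1.88 times the lowest. The read-based table gave 124.5, 65.6 and 90.9 TPM in the same order.

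The 3 ABIN genes are named for the binding of their proteins to A20, and the genes differed in level from one another. What their proteins do in these cells was not examined. Tnip3 (ENSMUSG00000044162.12, chr6:65525313-65634040, plus strand), which encodes ABIN-3, had 200.4, 102.0 and 120.9 TPM, from 5864, 3823 and 5885 counts, a mean of 141.1 ± 52.2 TPM. Its lowest library lay above the highest of Tnfaip3, and replicate 1 was again the highest and replicate 2 the lowest. Tnip1 (ENSMUSG00000020400.17, chr11:54910785-54962917, minus strand), which encodes ABIN-1, had 58.0, 43.0 and 50.6 TPM, a mean of 50.5 ± 7.49, in the same order of libraries. Tnip2 (ENSMUSG00000059866.13, chr5:34496087-34513991, minus strand) encodes ABIN-2, which also stabilises the kinase TPL2. It had 45.7, 38.4 and 45.9 TPM, a mean of 43.3 ± 4.32, with replicates 1 and 3 close together and replicate 2 below them. Tnip3 thus exceeded Tnip1 and Tnip2 in each library, and the values of Tnip1 and Tnip2 overlapped, although Tnip1 was the higher of the pair within each library. In the read-based table the means were 139.0 ± 51.7 TPM for Tnip3, 94.4 ± 11.9 for Tnip1 and 66.8 ± 0.70 for Tnip2, and the values of Tnip3 and Tnip1 overlapped there.

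Tax1bp1 and Itch encode proteins that A20 needs for part of its action, an adaptor that also serves as an autophagy receptor and a ubiquitin ligase. Tax1bp1 (ENSMUSG00000004535.12, chr6:52713729-52766780, plus strand) had 59.9, 51.0 and 57.9 TPM, a mean of 56.3 ± 4.67. Itch (ENSMUSG00000027598.16, chr2:155133509-155226855, plus strand) had 37.6, 48.7 and 42.1 TPM, a mean of 42.8 ± 5.63. Itch was the 1 member with its highest value in replicate 2 and it was lowest in replicate 1, opposite to Tnfaip3 and Tnip3.

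The deubiquitinases Cyld, Otulin and Otud7b filled the lowest places in the order by mean TPM. By mean expected counts, which are not divided by length, Cyld was in place 4 of the 9 members. Cyld removes linear and other ubiquitin chains, and the gene (ENSMUSG00000036712.15, chr8:88697028-88751945, plus strand) had 39.5, 36.8 and 35.3 TPM, a mean of 37.2 ± 2.16. Its highest library was 1.12 times its lowest, the smallest such ratio among the members in the alignment-based table. In the read-based table Cyld had 1.10 and Tnip2 had the smallest ratio, 1.02. Otulin, a deubiquitinase specific for linear chains (ENSMUSG00000046034.8, chr15:27542635-27630693, minus strand), had 17.3, 15.6 and 19.6 TPM, a mean of 17.5 ± 2.01, from 220, 261 and 399 counts, the fewest of any member. Otud7b, also called Cezanne (ENSMUSG00000038495.14, chr3:96104527-96161129, plus strand), had 12.0, 12.1 and 13.8 TPM, a mean of 12.6 ± 1.02. Both were highest in replicate 3, and their 3 values did not overlap.

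The order by level was Tnip3, Tnfaip3, Tax1bp1, Tnip1, Tnip2, Itch, Cyld, Otulin and Otud7b. Of the 8 pairs of neighbours in it, 3 had values that did not overlap between libraries: Tnip3 over Tnfaip3, Cyld over Otulin, and Otulin over Otud7b. The 5 genes from Tnfaip3 to Itch did not separate from one another as neighbours beyond the spread of the libraries, nor did Itch from Cyld. In 5 of the 8 pairs the order was the same in each library. In the read-based table Tnip1 stood in the second place and Tnfaip3 in the third, at 94.4 and 93.7 TPM, and only Itch over Cyld and Cyld over Otulin did not overlap. Otud7b was the 1 member whose read-based mean, 26.3 TPM, reached 2 times its alignment-based mean, as did 9.4% of the 4725 genes of like level. Tnip1 followed at a ratio of 1.87 and Otulin at 1.63, whereas Tnip3 had 0.985 and Cyld 1.05.

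**Figure D2:**
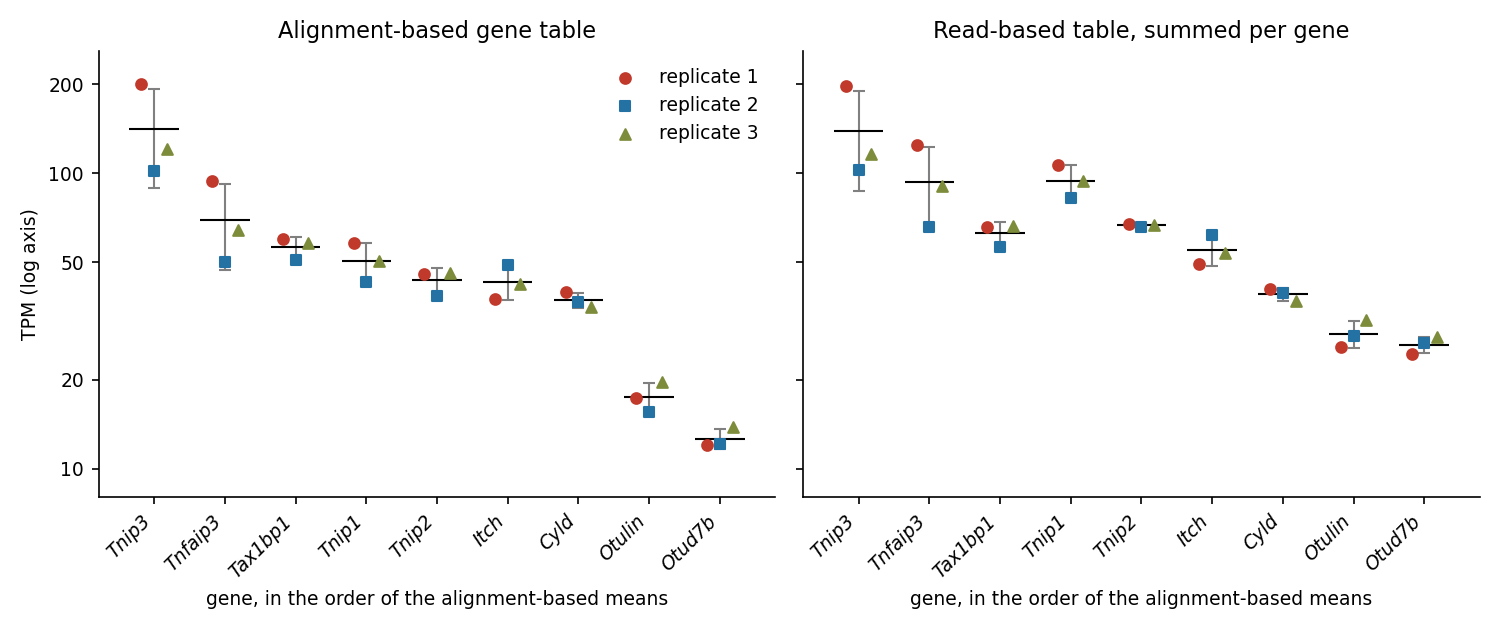
TPM of the 9 members in each library (points), with the mean (line) and SD over 3 libraries (bars), on a log axis, in the alignment-based gene table and in the read-based table. Tnip3 has the highest mean in both at 141.1 and 139.0 TPM, Otulin and Otud7b the lowest, and replicate 1 stands above the other libraries for Tnip3 and Tnfaip3.

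Variation between the libraries was large for Tnip3 and Tnfaip3 and modest for the other 7 members. The SD of log2(TPM + 1) was 0.50 for Tnip3 and 0.45 for Tnfaip3, and it ranged from 0.08 for Cyld to 0.21 for Tnip1 among the rest. In the read-based table the lowest was 0.015 for Tnip2, below 0.069 for Cyld. The members' median SD was 0.16, beside 0.16 over all detected genes and 0.14 over genes of like level. Of those genes of like level, 2.07% had a larger SD than Tnip3 and 3.43% a larger one than Tnfaip3, against 77.6% for Cyld. As SD over mean, the TPM of Tnip3 varied by 37.0% and that of Tnfaip3 by 32.2%.

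For Tnip3 and Tnfaip3 the highest library was at least 1.5 times the lowest, 2 of 9 members. The share was 13.1% among genes of like level and 31.9% among all detected genes. Leaving out replicate 1 brought the count of members to 0, with ratios of 1.18 for Tnip3 and 1.29 for Tnfaip3. Leaving out replicate 2 brought it to 1, with 1.66 for Tnip3 and 1.46 for Tnfaip3. The shares among other genes on leaving out a replicate were not computed. The deposited credibility intervals of replicate 1 lay above those of both other libraries for the same 2 genes, as for 9.61% of genes of like level. For Tnfaip3 the interval was 80.9 to 92.6 TPM in replicate 1, 43.2 to 51.0 in replicate 2 and 57.0 to 65.1 in replicate 3. For Tnip3 it was 175.3 to 194.9, 89.3 to 102.5 and 108.8 to 121.3 TPM. The files do not state the level of these intervals, and a deposited TPM can lie outside its own interval. It lay above the interval for both genes in replicate 1, for Cyld and Itch in every library and for Tax1bp1 in replicates 1 and 3. No member had a TPM below its interval.

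By library, 5 members were highest in replicate 1, where 38.9% of detected genes were highest. Only Itch was highest in replicate 2 (28.7% of detected genes), and Tnip2, Otulin and Otud7b were highest in replicate 3 (31.7%). The 5 in replicate 1 were Tnfaip3, Tnip1, Tnip3, Cyld and Tax1bp1. The read-based table gave the same 3 counts, but Tnip2 was highest in replicate 1 there and Tax1bp1 in replicate 3. Replicate 1 minus the mean of the other libraries was 0.85 for Tnip3, 0.72 for Tnfaip3 and 0.31 for Tnip1 on the log2(TPM + 1) scale, and it was -0.26 for Itch. The median over the members was 0.13, beside 0.02 over all detected genes. Tnfaip3, Tnip1, Tnip3 and Tax1bp1 followed the order of the starting amounts of RNA, 1000 ng highest and 250 ng lowest, as did 23.7% of detected genes. The part of the starting amount in these differences was not tested.

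**Figure D3:**
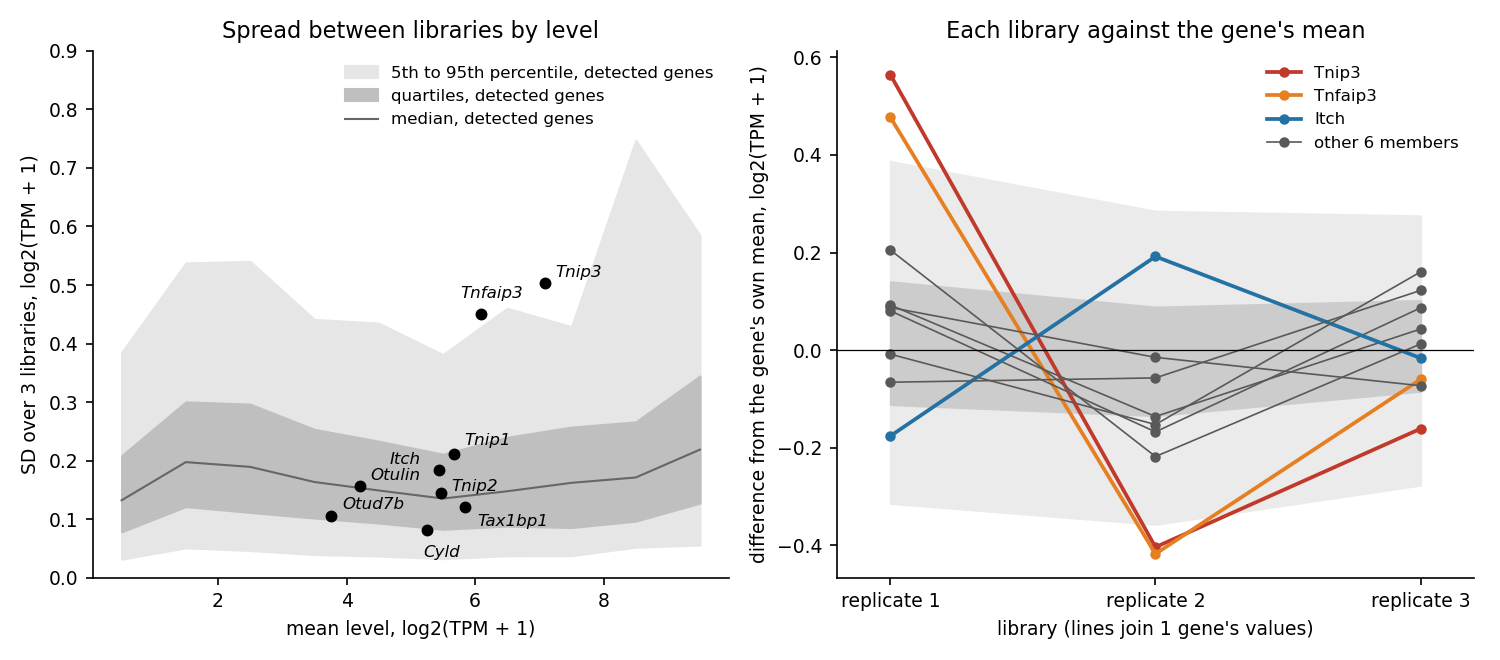
Left, SD over 3 libraries against mean level for the 9 members (black points), with percentiles of detected genes per unit of level (grey). Right, each library's difference from the gene's own mean with quartiles and 5th to 95th percentiles of detected genes in grey: Tnip3 and Tnfaip3 lie above the band in replicate 1 and below it in replicate 2, and Itch goes the other way within the band.

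The pattern of Tnfaip3 over the libraries was compared with 8434 protein-coding genes that had a mean count of at least 100, by the Euclidean distance between deviations from each gene's own mean over 3 libraries. The nearest was Acsl1, which encodes an acyl-CoA synthetase, at a distance of 0.0183 and with 51.0, 26.5 and 34.5 TPM. Ifi206 followed at 0.0206, Rgl1 at 0.0231, Ccnd2, which encodes cyclin D2, at 0.0281, and Mdfic at 0.0329. Ccnd2 had only 3.32, 1.28 and 2 TPM, a low level at which log2(TPM + 1) understates differences between libraries. Of the members, Tnip3 was the nearest, at rank 86 with 0.134, followed by Tnip1 at rank 745, and Itch was the farthest at rank 7392. Only 3 libraries enter this likeness, so it is a description of them.

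Much of the chromatin RNA of several members was assigned to transcripts that GENCODE annotates as retained intron. Such transcripts keep sequence which the coding transcript splices out. Chromatin RNA also holds RNA not yet spliced, whose intron reads can fit the same transcripts, and these sources were not told apart. Retained intron transcripts held 88.1 ± 0.58% of the TPM of Tnip3 (SD, n = 3), 75.5 ± 3.25% of that of Itch and 66.2 ± 2.93% of that of Tnfaip3. The shares were 53.5 ± 8.46% for Tnip2, 50.03 ± 0.69% for Tax1bp1, 44.8 ± 3.62% for Cyld and 29.9 ± 5.13% for Tnip1. Otulin and Otud7b have no annotated transcript of this type. The 7 members that have one had a median of 53.5%, beside 46.8% over 6584 genes of at least 1 TPM with such a transcript, and 5 of them held over 50%, as did 44.5% of those genes. Without replicate 1 that number was 3, since Tnip2 had 49.0% and Tax1bp1 49.6%. Tnip3 lay above 97.3% of the genes with such a transcript and Itch above 90.4%, and Tnip1 above 24.6%.

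The read-based table put 80.3 ± 0.32% of Tnip3 and 74.1 ± 1.12% of Itch in retained intron transcripts. It gave 50.8 ± 2.57% for Tnfaip3, 71.9 ± 2.97% for Tnip2 and 34.4 ± 1.58% for Tax1bp1. There, 4 members held over 50%, beside 43.8% of 7515 genes. It gave 39.2 ± 2.83% for Cyld and 30.5 ± 0.72% for Tnip1. Tnip3 and Itch had the highest shares in both tables, but the shares of Tnip3, Tnip2, Tnfaip3, Tax1bp1 and Cyld each differed between the tables by more than 1 SD of the alignment-based libraries. Measured as a share of expected counts, which is not scaled by length, the order changed: the value was 82.9% for Tnip3, 64.5% for Tnfaip3, 54.2% for Tax1bp1 and 53.7% for Itch. It was 34.4% for Cyld, 25.1% for Tnip2 and 5.64% for Tnip1, whose share of TPM was 29.9%.

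**Figure D4:**
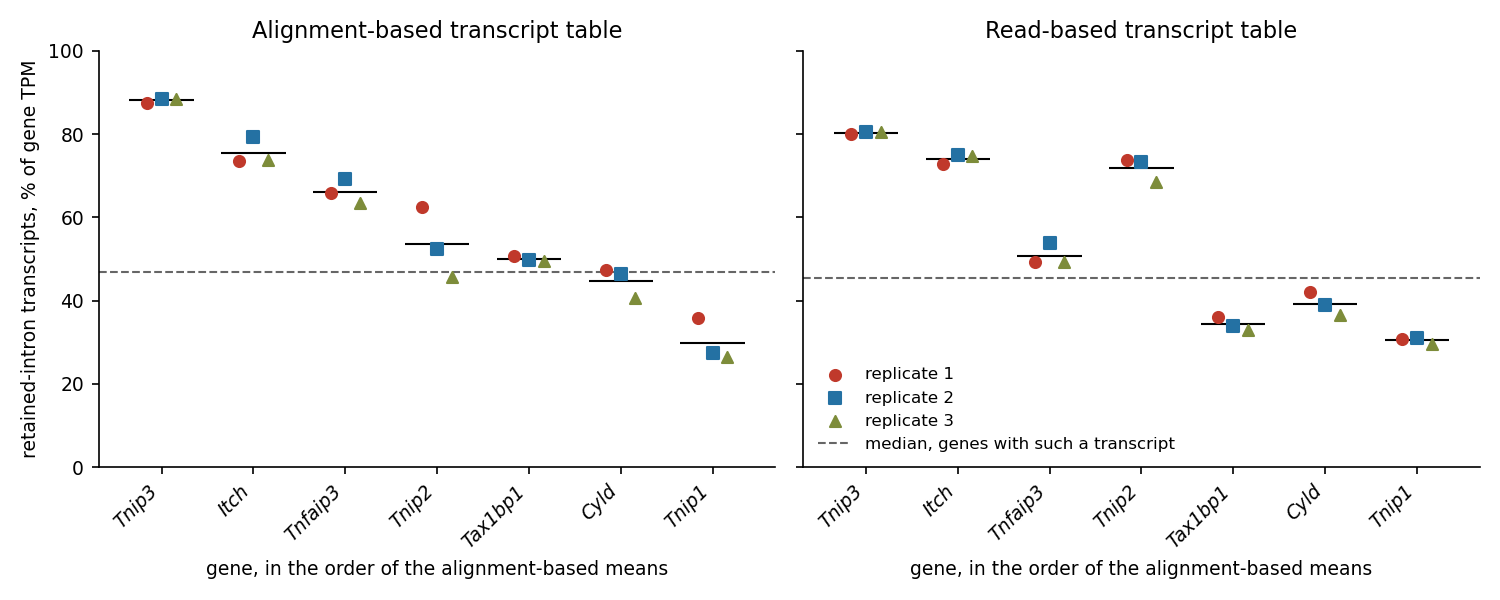
Share of each gene's TPM in transcripts annotated as retained intron, per library (points) with the mean (line), for the 7 members with such a transcript, in both transcript tables. The dashed line is the median of genes with such a transcript, 46.8% and 45.4%, and Tnip3 lies at 88.1 and 80.3%.

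The Tnip3 transcript Tnip3-206, a single unspliced stretch at chr6:65590487-65595113 that covers all 2816 bases of intron 1 of the coding transcript Tnip3-201 and 1567 of the 2585 bases of intron 2, had 54.4, 26.7 and 35.0 TPM and held 50.6% of the gene's counts. Tnip3-204, another unspliced stretch at chr6:65597574-65600197 that covers 2239 of the 2358 bases of intron 4, had 48.5, 31.4 and 34.6 TPM and 27.4% of the counts. Tnip3-201 itself had 23.2, 11.8 and 13.5 TPM and 16.9% of the counts. In each of these the order of the libraries was that of the gene, replicate 1 highest and replicate 2 lowest. The start of the longer coding transcripts Tnip3-207 and Tnip3-208, which lies upstream, held 0.45 ± 0.50% of the TPM in the alignment-based table but 12.2 ± 0.27% in the read-based table.

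The Tnfaip3 transcript Tnfaip3-205, which keeps introns 4 and 6 of the coding transcript Tnfaip3-202 whole (1131 and 699 bases), had 25.3, 12.8 and 17.8 TPM and held 57.1% of the gene's counts. Tnfaip3-206, a short transcript of 764 bases that takes in 510 bases of intron 1, had the highest TPM, 36.5, 21.9 and 23.1, but 7.32% of the counts, so TPM and counts rank the 2 transcripts in opposite order. Of the coding transcripts Tnfaip3-202 led, with 22.1, 10.4 and 11.6 TPM, and it starts at the inner start. Tnfaip3-201, which starts at the outer start beside the NF-κB matches shown above, had 0, 0.87 and 4.30 TPM. In the read-based table the short coding transcript Tnfaip3-204 led with 40.9, 19.9 and 29.6 TPM, against 10.01, 4.10 and 7.65 TPM in the alignment-based table. The outer start and those within 500 bases of it (Tnfaip3-201, Tnfaip3-203 and Tnfaip3-205) held 29.5 ± 4.14% of the TPM, the inner start 20.8 ± 2.75% and the start of Tnfaip3-204 10.2 ± 1.88%. In the read-based table these shares were 19.6 ± 1.91, 13.5 ± 1.503 and 31.9 ± 1.41%, so the tables put different starts first among these.

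**Figure D5:**
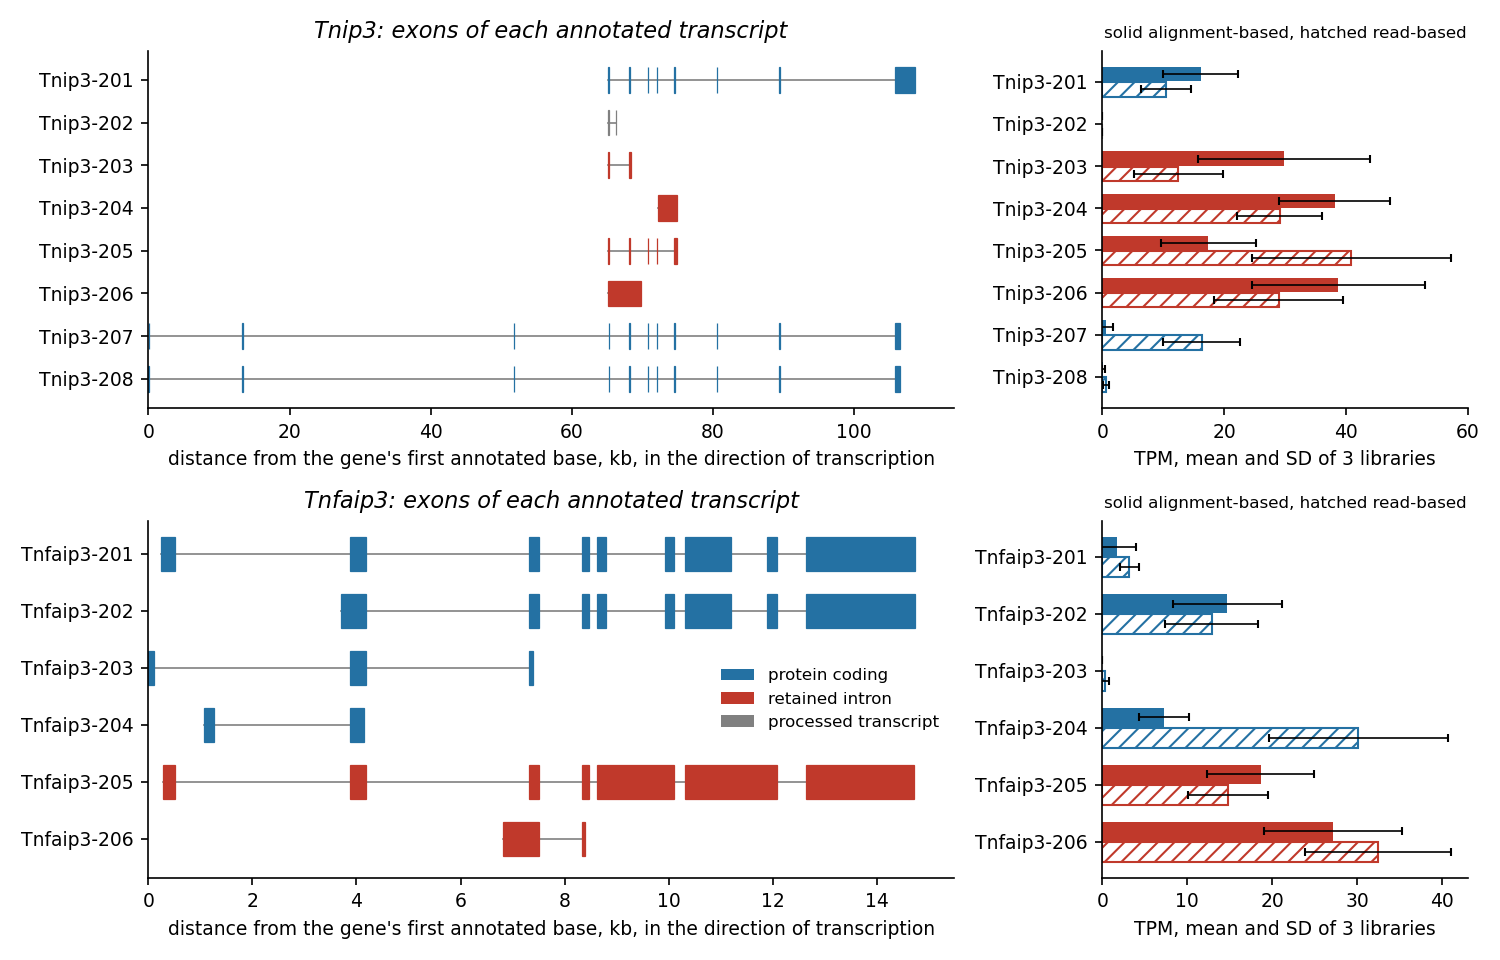
Exons of each annotated transcript of Tnip3 and Tnfaip3 as distance from the gene's first annotated base (left, coloured by annotated type), and the TPM of each transcript as mean and SD of 3 libraries in both tables (right). The unspliced Tnip3-206 and Tnip3-204 have means of 38.7 and 38.1 TPM in the alignment-based table, and Tnfaip3-204 is 7.25 TPM there and 30.1 TPM in the read-based table.

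Among the remaining members, the leading coding transcript was the same in both tables for Tnip2 (Tnip2-202), Otulin (Otulin-201), Tax1bp1 (Tax1bp1-201) and Itch (Itch-201). It differed for Tnip1, Cyld and Otud7b as it did for Tnfaip3 and Tnip3. For Otud7b, Otud7b-201 had 3.74, 4.45 and 4.59 TPM and 76.6% of the counts in the alignment-based table and was listed at 0 in each library of the read-based table, where Otud7b-203 had 3.92, 4.10 and 4.17 TPM. Otud7b also had 55.7 ± 4.88% of its TPM in transcripts of the processed transcript type, which carry no annotated reading frame, and 67.8 ± 6.27% in the read-based table. By expected counts the 2 of these transcripts that had any, Otud7b-208 and Otud7b-205, held 6.98 and 1.84%. Otulin had 28.1 ± 6.92% of its TPM in Otulin-203, which is annotated as subject to nonsense-mediated decay, but 18.7 ± 6.99% in the read-based table and 15.8% of its counts. Cyld had 24.2 ± 0.64% in the processed transcript Cyld-208, 21.5 ± 1.71% in the read-based table and 8.40% of its counts. The shares of transcripts rest on how each method divided reads that fit more than 1 of them.

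Whether strand entered the counting is not stated in the labels or file headers, so reads from genes that overlap on opposite strands may be mixed. Otulin overlaps Ank, a protein-coding gene on the opposite strand with a mean of 327.3 counts beside 293.3 for Otulin. Only the short Otulin-202, with 0.49% of the counts of Otulin, reaches into Ank, and Otulin-201 at chr15:27605919-27630693 does not. Tnip1, Cyld, Tax1bp1 and Itch overlap pseudogenes or unverified transcripts with at most 6.41% of their own counts each. Tnfaip3, Tnip2, Tnip3 and Otud7b overlap no other annotated gene.

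The other genes of the pathway were taken from a list of 37 symbols, and all 37 were detected. Of them, 26 were highest in replicate 1, 7 in replicate 2 and 4 in replicate 3, beside 38.9, 28.7 and 31.7% of detected genes. A highest library at least 1.5 times the lowest was found for 7 of the 37. The share was 31.9% among detected genes and 13.1% among genes of like level to the 9 members. The median SD of the 37 was 0.15, beside 0.16 over all detected genes and 0.14 over genes of like level to the members. The median level of the 37 was 4.78, above that of all detected genes at 3.08. Among the substrates and ligases of these brakes, Birc3, which encodes the ligase cIAP2, had 127.7 ± 29.4 TPM and Tradd, an adaptor of TNF receptor 1, had 8.66 ± 1.06 TPM. The linear ubiquitin ligase, whose chains Otulin and Cyld cut, ranged from 78.9 ± 6.50 TPM for Rbck1 to 53.9 ± 7.18 TPM for Rnf31. The mean TPM of each of its 3 subunits was above that of Otulin.

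Among the kinases, Ikbke was the highest at 1109 ± 89.1 TPM and Tab3 the lowest at 4.14 ± 1.35 TPM. Among ubiquitin-conjugating enzymes Ube2d3 had 123.1 ± 22.9 TPM and Ube2l3 13.9 ± 1.34 TPM. In the read-based table Ube2l3 had 54.7 ± 0.77 TPM, and Ube2v1 was the lowest of these enzymes at 19.8 ± 1.90 TPM. Of the partners of the members, Ndfip1, which activates Itch, had 27.8 ± 2.44 TPM, and Spata2, which links Cyld to the linear ubiquitin ligase, had 9.22 ± 1.52 TPM. Among the receptors Tnfrsf1b had 66.0 ± 4.38 TPM and Tnfrsf1a 19.6 ± 0.78 TPM. Cd40, with 30.2, 15.1 and 17.4 TPM, had the largest ratio of highest to lowest library of these receptors, 2.00. In the read-based table the lowest genes were Traf6 among the substrates and ligases and Sharpin in the linear ubiquitin ligase. Ndfip2 was the lowest partner and Tlr4 the lowest receptor there, and Optn was the highest partner.

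Of the 7 groups on that list, the genes of the IκB family had the largest median SD, 0.38 over 5 genes. Nfkbia, which encodes the inhibitor IκBα and is another feedback gene of NF-κB, had 138.3, 77.3 and 116.4 TPM, a mean of 110.7 ± 30.9. It was highest in replicate 1 and lowest in replicate 2, with a ratio of 1.79 between them, and Nfkbie had the same order at 15.3, 7.32 and 14.5 TPM. The other genes of the family did not: Nfkbiz was lowest in replicate 3 at 37.2, 26.9 and 26.7 TPM, and Bcl3 was highest in replicate 2 at 21.8, 24.0 and 20.6 TPM. Nfkbib was the lowest of this group at 6.03 ± 1.81 TPM and was highest in replicate 3.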

How the data were processed

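RNA of the chromatin fraction was measured in 3 libraries of 1 group. Per the README files that the authors deposited, values are on mm10 and GENCODE release M21. Names and versions of aligners and counters are not given in the sources used here. Expected counts and TPM per gene and per transcript were estimated from alignments and deposited by the authors, with a second transcript table of estimated counts and TPM taken from the reads. The bounds of the deposited TPM credibility intervals, a score with no stated level, were used as given. TPM scales each library to a fixed total, so a few abundant RNAs lower all other values.

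Gene values of the read-based table were summed per gene. Levels used log2(TPM + 1), a scale that understates differences between low genes. Background genes had a mean expected count of at least 10, and those of like level were protein coding and within the members' range of mean TPM. Transcript type shares used genes of at least 1 TPM. The members, gene lists and markers were chosen with earlier results of these data known. All 9 members were named, and of each list of other genes the highest and the lowest by alignment-based mean TPM and those a result turned on. Markers named are extremes of their lists, and 1 that this rule takes is not reported here.

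After rounding to whole numbers, expected counts entered edgeR 4.0.16 and DESeq2 1.42.0 under R 4.3.3, used only for scaling. Other steps ran in Python 3.11.15 with matplotlib 3.10.9 for figures, scipy 1.17.1, pandas 2.3.3 and numpy 2.4.6, and were tested on simulated data. Depth ranged from 14609979 to 24162551 expected counts, and counting errors cover counting only. Alternatives covered the read-based table, scaling, pseudocount, filters and leaving out each replicate. No protein comparison was made.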

Additional observations from a re-analysis of the deposited data

How the results depend on the processing

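No paired analysis was possible because the series has 1 group. The median level of the 9 members (5.47, log2(TPM + 1)) was 5.99 in the read-based table and 6.36 with TPM rescaled without features under 200 bases and the ribosomal genes, while the median of all detected genes went from 3.08 to 3.61 and 3.89. Scaled counts are not divided by length, and the members' median was 6.56 as TMM-scaled CPM and 10.73 as counts over DESeq2 size factors, in other units than TPM. Of the 8 neighbouring pairs of members in the order by level, 5 kept their order under either of these scalings. Leaving out each replicate gave medians of 5.45 to 5.55 and a median SD of 0.12 to 0.18 (0.16 with all). The number of members with a highest library at least 1.5 times the lowest was 0 to 2 on leaving out each replicate. At ratios of 1.2 and 2, chosen after seeing the data, it was 5 and 0. The median ratio was 1.22 over genes of like level and 1.33 over all detected genes, so most genes also passed 1.2. Shares of all genes at a ratio of 2 or on leaving out each replicate were not computed, so these counts have no background. Leaving out each replicate, 3 to 5 members held over 50% in retained intron transcripts, and their median share was 49.6 to 57.4%. The numbers of members highest in each replicate stayed within 1.5 times under each scaling and in the read-based table. Replicate 1 minus the others stayed positive for Tnfaip3 (0.54 to 0.89) and Tnip3 (0.73 to 0.97) and negative for Itch (-0.37 to -0.16) over 7 alternatives. It changed sign for Tnip2 and Otulin, whose values were not called. Causes were not tested. Without a filter on low counts, genes at 0 entered the background and its median level was 0. Of 373 alternative values, 275 stayed within the margin set for them. The 373 include levels as scaled counts, set against TPM in another unit, so the tally is no measure of stability. For counts of members the margin was 1.5 times the count, and for levels, shares and differences it was the SD between replicates. For SDs and ratios of libraries it was the SD of the values on leaving out each replicate, and for background percentages the error of a binomial interval. Depth limits Otulin most, at 220 counts in replicate 1, a Poisson error of 6.74%.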
